A study of Mus musculus with 12 samples.

Results

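The genes described here make, carry, remove and sense retinoic acid: the retinal dehydrogenases Aldh1a1, Aldh1a2 and Aldh1a3, the binding proteins Crabp1 and Crabp2, the hydroxylase Cyp26b1, the retinoic acid receptors Rara, Rarb and Rarg, and the retinoid X receptor Rxrg. They were chosen as Aldh1a2 and a short list of its pathway partners, with their levels in these cell lines already known, and are 10 of the 55471 gene rows in each count file. All 10 rows were found. RNA sequencing read counts were available for 12 libraries, 3 from each of 4 mouse melanoma cell lines. The lines are MeVa2.1 and MeVa2.2 and the lines MeVa2.1.dOVA and MeVa2.2.dOVA, each taken here as a derivative of the line whose name it extends. All 4 are labelled wild type, from skin with a subcutaneous tumour as source, and were left untreated. The labels do not spell out dOVA or say whether a line is 1 clone, and MeVa2.1.dOVA is called immune-refractory in the title of the series. Nor do they say whether replicates were separate cultures, so the tests below read the spread among these libraries alone, and that spread may be technical.

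Retinoic acid is a small lipid-soluble hormone made from vitamin A. Retinol is oxidised to retinal by retinol and alcohol dehydrogenases, and retinal is oxidised irreversibly to retinoic acid by the retinal dehydrogenases of the Aldh1a family. Inside the cell it is carried by the Crabp proteins, inactivated by the Cyp26 hydroxylases, or taken to the nucleus, where receptor pairs of a retinoic acid receptor and a retinoid X receptor bind DNA at direct repeats of a short half-site. In skin and in cells of the melanocyte lineage retinoids are known as regulators of growth and differentiation.

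The DNA where such receptors bind is shown for a pair of classical retinoic acid response genes, Rarb and the hydroxylase Cyp26a1, since the levels of both are given below. A search for direct repeats of the half-site AGGTCA, the variant AGTTCA, the variant GGGTCA or the variant GGTTCA, spaced by 1, 2 or 5 bases (DR1, DR2 and DR5), on both strands, covered the RefSeq promoter windows of GRCm38.p6, 250 bases before to 50 bases after each start. Windows were given for 8 of the 10 genes, and 1 of these, Rarb, held a match. Of all 32851 windows 0.222% held a DR1, 0.268% a DR2 and 0.0974% a DR5. In the lines below, 5′ to 3′ along the gene, capitals mark the DR5 and the 6 bases on each side are in lower case. The Cyp26a1 repeat reads along the opposite strand, and the Rarb site lies within annotated exon sequence.
Rarb, chr14:16575507-16575535, minus strand: gggaagGGTTCACCGAAAGTTCActcgca
Cyp26a1, chr19:37697770-37697798, plus strand: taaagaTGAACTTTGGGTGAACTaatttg
The 250 bases before the start of Aldh1a2, the gene whose level separated the dOVA lines from both parents, held none of these letters, which says nothing about the receptors elsewhere in the gene.
Aldh1a2, chr9:71215539-71215788, plus strand: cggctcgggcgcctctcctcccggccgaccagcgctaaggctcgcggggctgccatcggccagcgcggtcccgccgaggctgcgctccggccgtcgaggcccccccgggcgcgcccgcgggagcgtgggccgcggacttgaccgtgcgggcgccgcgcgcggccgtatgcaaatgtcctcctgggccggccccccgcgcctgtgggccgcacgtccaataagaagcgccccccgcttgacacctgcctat

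Library totals ran from 16181816 to 35627069 gene counts, and levels below are counts scaled to that total (CPM). Some libraries stood apart. Replicate 2 of MeVa2.2 correlated at 0.932 and 0.956 with the others of its line but at 0.969 with replicate 1 of MeVa2.2.dOVA (Pearson's r of log2 CPM across genes, a description). Replicate 2 of MeVa2.1.dOVA correlated at 0.956 and 0.958 with its line, whose other pair reached 0.983. Replicate 3 of MeVa2.1 was closest to replicate 3 of MeVa2.1.dOVA, at 0.979 against at most 0.970 within its own line. Replicate 3 of MeVa2.2.dOVA correlated at 0.952 and 0.960 with its line, whose other pair reached 0.985. Values without both of the first 2 libraries, or without the last, are given for some differences only, so their absence does not mean that nothing moved. The first choice was made with the levels of Cyp26b1 and Crabp1 in these libraries in view. Of the 10 melanocyte markers Gpnmb lay at 95.9 to 787 CPM and Mitf at 8.84 to 24.1 CPM, and the other 8 summed to 0.213 to 43.1 CPM. The highest of these sums was in replicate 1 of MeVa2.2, with Dct at 15.9, Tyrp1 at 12.3 and Pmel at 6.39 CPM, and the next was 6.96 CPM. Sox10 reached at most 1.12 CPM and Tyr, the pigment enzyme tyrosinase, 2.43 CPM. The 5 markers of dedifferentiated melanoma were uneven: Axl lay at 1243 to 1844, Aqp1 at 90.8 to 2825, Sox9 at 17.5 to 63.2, Nt5e at 0.0574 to 29.7 and Ngfr at 0 to 6.05 CPM. Leukocyte markers summed to 1.54 to 4.88 CPM, with 9 of 10 under 1 CPM in every library and Cd3e and Ncr1 among those at 0. Endothelial, epithelial and mesothelial markers summed to at most 3.97 CPM.

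The retinal dehydrogenases had different patterns across the lines. Aldh1a2 (ENSMUSG00000013584, GRCm38 chromosome 9, 71215789 to 71296243), the main enzyme of retinoic acid synthesis in the embryo, was a low transcript in all 4 lines. In replicates 1, 2 and 3, in that order here and below, it stood at 1.03, 1.04 and 1.71 CPM in MeVa2.1 and at 0.124, 0.0574 and 0.0576 CPM in MeVa2.1.dOVA. In MeVa2.2 it stood at 0.651, 0.579 and 0.761 CPM, and in MeVa2.2.dOVA at 0.0539, 0 and 0.0297 CPM. Every parental library was above every dOVA library. Behind these levels are 100 and 42 summed counts in the parents MeVa2.1 and MeVa2.2, and 5 and 2 in their dOVA lines.

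The log2 difference of Aldh1a2 from the parent was -3.98 (SE 0.56) in MeVa2.1.dOVA and -4.36 (SE 0.63) in MeVa2.2.dOVA. In MeVa2.1 the mean level was 15.8-fold that of its dOVA line. The ratio of summed counts, parent over dOVA line and scaled by totals, was 18.6 for MeVa2.1 and 24.0 for MeVa2.2. Their exact 95% intervals, 7.72 to 58.6 and 6.24 to 204, overlapped and cover counting error only. These differences are descriptions, since the gene was chosen with them known. The order of the lines by mean level was MeVa2.1 (1.26 ± 0.39, SD, n = 3), MeVa2.2 (0.664 ± 0.091), MeVa2.1.dOVA (0.0795 ± 0.0382) and MeVa2.2.dOVA (0.0279 ± 0.0270). The 2 parents did not overlap, with a log2 difference of 0.93 (SE 0.44). The 2 dOVA lines could not be told apart at this depth: the ratio of summed counts, MeVa2.2.dOVA over MeVa2.1.dOVA, was 0.385 with an interval of 0.0367 to 2.35. In bulk RNA, fewer cells with the transcript and less transcript per cell cannot be told apart, here and for every gene below.

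Aldh1a3 (ENSMUSG00000015134, chromosome 7, 66390890 to 66427517), the retinal dehydrogenase often found in tumours, was the most abundant of the 3 by length in most libraries. It stood at 78.7, 71.8 and 9.49 CPM in MeVa2.1 and at 21.1, 4.996 and 8.32 CPM in MeVa2.1.dOVA. Replicate 3 of MeVa2.1, the library closest to MeVa2.1.dOVA over all genes, lay among the dOVA values, so the lines overlapped. In MeVa2.2 the levels were 14.9, 2.53 and 3.92 CPM and in MeVa2.2.dOVA 1.29, 0.427 and 0.386 CPM, with no overlap. The log2 difference from the parent was -2.26 (SE 0.86) in MeVa2.1.dOVA and -3.38 (SE 0.98) in MeVa2.2.dOVA. By origin, MeVa2.1 was above MeVa2.2 by 2.97 (SE 0.89) and MeVa2.1.dOVA above MeVa2.2.dOVA by 4.09 (SE 0.99), the second without overlap. Without replicate 2 of MeVa2.1.dOVA and of MeVa2.2 the differences from the parent were -1.90 (SE 0.92) and -3.79 (SE 0.98). Those by origin were then 2.56 (SE 0.95) and 4.45 (SE 0.98). By mean level MeVa2.1 came first, followed by MeVa2.1.dOVA, then MeVa2.2, with MeVa2.2.dOVA last, and the libraries of MeVa2.1.dOVA (4.996 to 21.1 CPM) and MeVa2.2 (2.53 to 14.9 CPM) overlapped.

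Aldh1a1 (ENSMUSG00000053279, chromosome 19, 20492715 to 20643465), the broadly expressed cytosolic member, did not follow the other dehydrogenases. It stood at 0.378, 0 and 1.80 CPM in MeVa2.1 and at 1.54, 0.0574 and 2.71 CPM in MeVa2.1.dOVA. In MeVa2.2 it stood at 1.54, 0.105 and 0.571 CPM and in MeVa2.2.dOVA at 0.917, 0.480 and 10.3 CPM. All 4 lines overlapped, and replicate 2 was the lowest library in each. The log2 differences from the parent were 0.95 (SE 1.40) and 2.36 (SE 1.45), both within 2 SE of 0. Without replicate 3 of MeVa2.2.dOVA, the single library at 10.3 CPM, the second was -0.05. MeVa2.1.dOVA differed from MeVa2.2.dOVA by -1.35 (SE 1.37), and without that library by 1.06 (SE 1.45).

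Levels of different genes were compared per kilobase of exon. Among the dehydrogenases Aldh1a3 held a median of 71.1% of the family's CPM per kb over the 12 libraries, with a range from 3.84% to 97.1%, Aldh1a1 held 8.53% and Aldh1a2 2.73%. The summed family level per kb was 3.17 to 17.6 in MeVa2.1, 1.12 to 4.95 in MeVa2.1.dOVA, 0.825 to 3.82 in MeVa2.2 and 0.190 to 2.18 in MeVa2.2.dOVA. These ranges overlapped between each dOVA line and its parent.

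**Figure D1:**
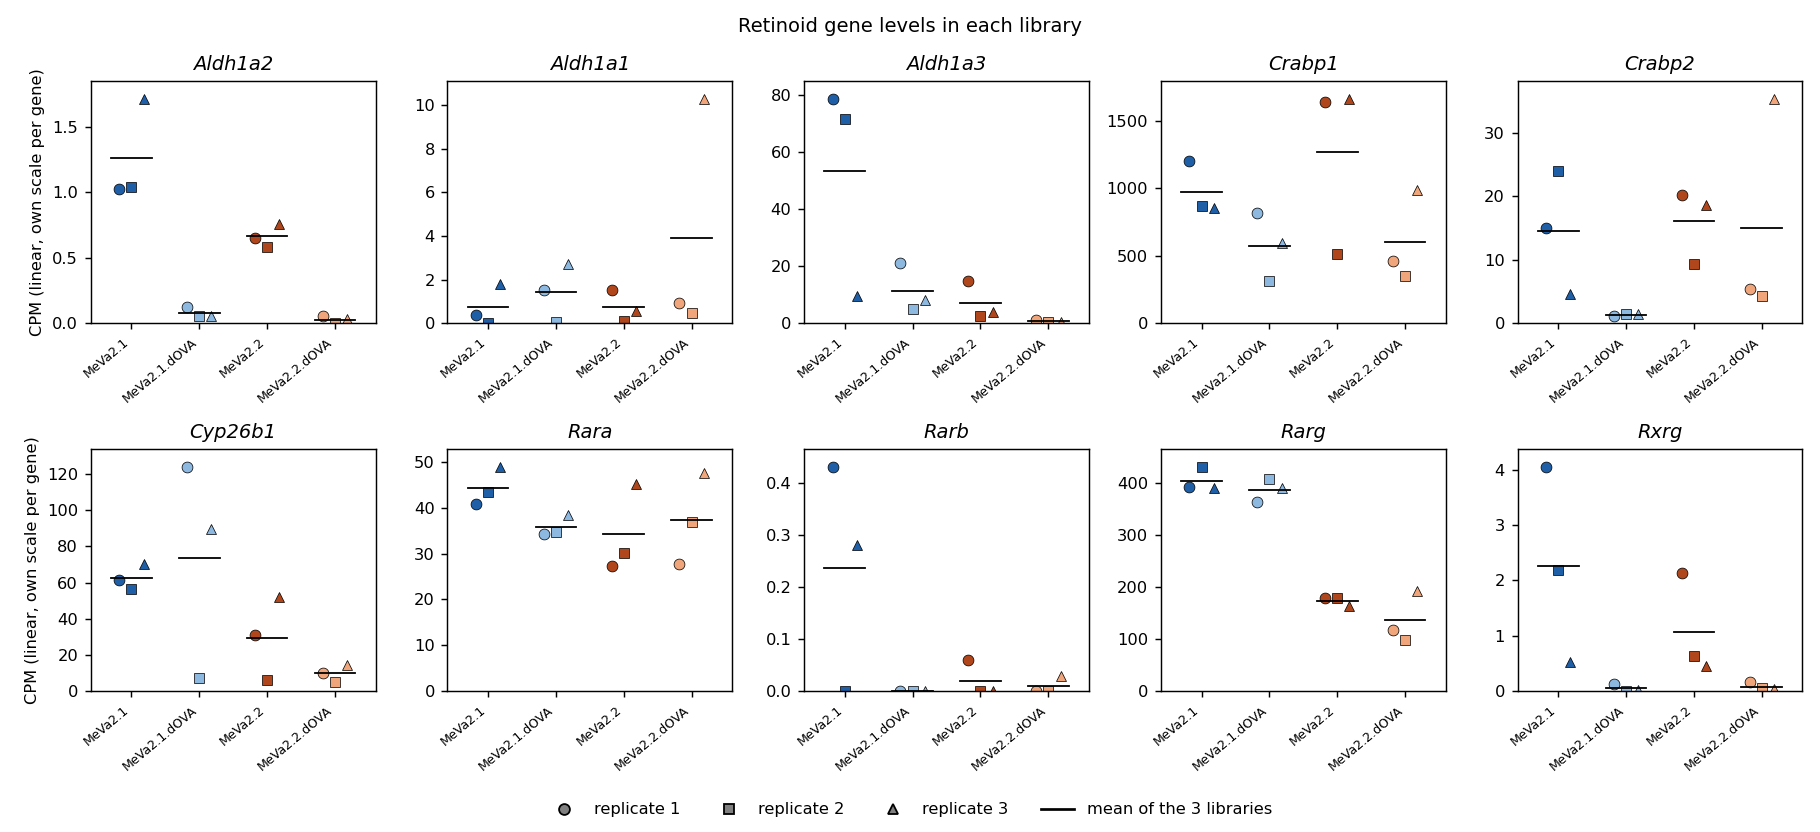
CPM of each of the 10 genes (vertical axis, linear, own scale per gene) in the 12 libraries, grouped by line; marker shape gives the replicate and the line the mean of 3 libraries. Aldh1a2 is above 0.5 CPM in all 6 parental libraries and below 0.2 CPM in all 6 dOVA libraries, while Aldh1a1 and Crabp2 each have a single high library in MeVa2.2.dOVA (10.3 and 35.4 CPM).

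The binding proteins hold retinoic acid in the cytoplasm. Crabp1 (ENSMUSG00000032291, chromosome 9, 54764748 to 54773110), thought to direct retinoic acid to its breakdown, was the most abundant member per length, at 1068 CPM per kb over the 12 libraries. Its levels were 1201, 870 and 857 CPM in MeVa2.1, 820, 311 and 594 CPM in MeVa2.1.dOVA, 1640, 515 and 1663 CPM in MeVa2.2, and 463, 352 and 990 CPM in MeVa2.2.dOVA. MeVa2.1.dOVA lay below MeVa2.1 without overlap, by a log2 difference of -0.78 (SE 0.47), while MeVa2.2.dOVA and MeVa2.2 overlapped at -1.12 (SE 0.48). Without both libraries that stood apart these differences were -0.48 (SE 0.37) and -1.498 (SE 0.36), and without replicate 3 of MeVa2.2.dOVA the second was -1.64 (SE 0.50).

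Crabp2 (ENSMUSG00000004885, chromosome 3, 87948666 to 87953376), which delivers retinoic acid to the nuclear receptors, was low in MeVa2.1.dOVA. Its levels there were 1.17, 1.44 and 1.38 CPM, against 15.1, 24.0 and 4.60 CPM in MeVa2.1. In MeVa2.2 they were 20.2, 9.32 and 18.7 CPM and in MeVa2.2.dOVA 5.39, 4.37 and 35.4 CPM. The 3 MeVa2.1.dOVA libraries were thus below each of the other 9 libraries. The log2 difference from the parent was -3.47 (SE 0.83) in MeVa2.1.dOVA and -0.15 (SE 0.73) in MeVa2.2.dOVA, and between the dOVA lines it was -3.42 (SE 0.83). The difference between the 2 dOVA differences was -3.32 (SE 1.09). The last 3 of these values rest on replicate 3 of MeVa2.2.dOVA. Without it MeVa2.2.dOVA was at -1.71 (SE 0.60) from its parent, the dOVA lines were at -1.86 (SE 0.58) from each other and the difference of differences was -1.75 (SE 0.77). Per length Crabp1 made up 97.9% to 99.9% of the sum of both binding proteins in every library.

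Cyp26b1 (ENSMUSG00000063415, chromosome 6, 84571414 to 84593908) hydroxylates retinoic acid and so removes it. It was measured at 61.3, 56.2 and 70.4 CPM in MeVa2.1 and at 124, 7.18 and 89.5 CPM in MeVa2.1.dOVA. The levels in MeVa2.2 were 31.0, 6.004 and 51.8 CPM and in MeVa2.2.dOVA 10.03, 4.91 and 14.6 CPM. Replicate 2 was the lowest library in all 4 lines, which was also the case for 14.1% of the 13985 genes tested, and in MeVa2.1.dOVA and MeVa2.2 it was one of the libraries that stood apart. Against the parent the log2 difference was 0.21 (SE 0.82) in MeVa2.1.dOVA and -1.62 (SE 0.85) in MeVa2.2.dOVA. Without both libraries it was 0.75 (SE 0.36) and -2.11 (SE 0.37), with the low replicate 2 kept in the other line of each comparison. In the fit with a replicate block it was -0.43 (SE 0.64) and -1.37 (SE 0.63). Between the dOVA lines MeVa2.1.dOVA was above by 2.93 (SE 0.89), though its replicate 2 overlapped with MeVa2.2.dOVA, and by 3.47 (SE 0.38) without that library and replicate 2 of MeVa2.2. MeVa2.1 was above MeVa2.2 without overlap, by 1.10 (SE 0.83).

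Among the receptors Rarg led. Rarg (ENSMUSG00000001288, chromosome 15, 102234938 to 102257517), the main retinoic acid receptor of skin, held 73.4% to 92.3% of the summed receptor level per kb. It stood at 392, 432 and 391 CPM in MeVa2.1, at 364, 408 and 390 CPM in MeVa2.1.dOVA, at 180, 179 and 165 CPM in MeVa2.2 and at 117, 98.9 and 193 CPM in MeVa2.2.dOVA. Its level separated the lines by origin: all 6 libraries of MeVa2.1 origin were above all 6 of MeVa2.2 origin. The log2 difference by origin was 1.23 (SE 0.21) between the parents and 1.55 (SE 0.21) between the dOVA lines. Each dOVA line overlapped with its parent, with differences of -0.08 (SE 0.20) and -0.40 (SE 0.20). Without replicate 3 of MeVa2.2.dOVA the second was -0.69 (SE 0.15), and the libraries of MeVa2.2.dOVA and MeVa2.2 then did not overlap.

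Rara (ENSMUSG00000037992, chromosome 11, 98927818 to 98974942), the broadly expressed receptor, varied least. It stood at 40.9, 43.4 and 48.9 CPM in MeVa2.1, at 34.3, 34.8 and 38.5 CPM in MeVa2.1.dOVA, at 27.3, 30.1 and 45.2 CPM in MeVa2.2 and at 27.8, 36.8 and 47.5 CPM in MeVa2.2.dOVA. MeVa2.1.dOVA lay below MeVa2.1 without overlap, by a log2 difference of only -0.32 (SE 0.23), and the other neighbouring lines overlapped. Replicate 1 was lowest and replicate 3 highest in all 4 lines, patterns that 2.12% and 9.2% of the genes tested also had.

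Rarb (ENSMUSG00000017491, chromosome 14, 16430839 to 16819156), itself a target of retinoic acid through the DR5 shown above, was almost not detected. Its levels were 0.432, 0 and 0.281 CPM in MeVa2.1 and 0 in all 3 libraries of MeVa2.1.dOVA. A single count was found in each of MeVa2.2 and MeVa2.2.dOVA, in replicates 1 and 3. Over the group MeVa2.1 held 18 counts and MeVa2.1.dOVA 0. The summed level of MeVa2.1 was 5.59-fold above a floor of 3 counts over the 3 MeVa2.1.dOVA libraries, which corresponds to 0.0439 CPM. This ratio is no lower bound: exact 95% intervals of the summed levels were 0.145 to 0.388 CPM in MeVa2.1 and 0 to 0.0540 CPM in MeVa2.1.dOVA. The libraries of these lines overlapped, since replicate 2 of MeVa2.1 was also at 0. Exons of Top2b and Gm48162 on the opposite strand cover 38.4% of its exon bases, and the strand setting of the counting is not given in the sources used here, so its counts are uncertain. It did not pass the filter on low counts and has no fitted difference.

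Rxrg (ENSMUSG00000015843, chromosome 1, 167598384 to 167639623), the retinoid X receptor of restricted expression, was the second gene whose dOVA libraries were all below their parents' in both origins. It stood at 4.05, 2.19 and 0.533 CPM in MeVa2.1, at 0.124, 0 and 0.0288 CPM in MeVa2.1.dOVA, at 2.13, 0.632 and 0.456 CPM in MeVa2.2 and at 0.162, 0.0533 and 0.0297 CPM in MeVa2.2.dOVA. Its summed counts were 136, 3, 60 and 5. The ratio of summed counts scaled by totals, parent over dOVA line, was 42.2 with an interval of 14.1 to 207 for MeVa2.1 and 13.7 with an interval of 5.56 to 43.7 for MeVa2.2. Replicate 1 was the highest library in all 4 lines, as for Aldh1a3, a pattern seen in 4.11% of the genes tested. The 2 dOVA lines overlapped.

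**Figure D2:**
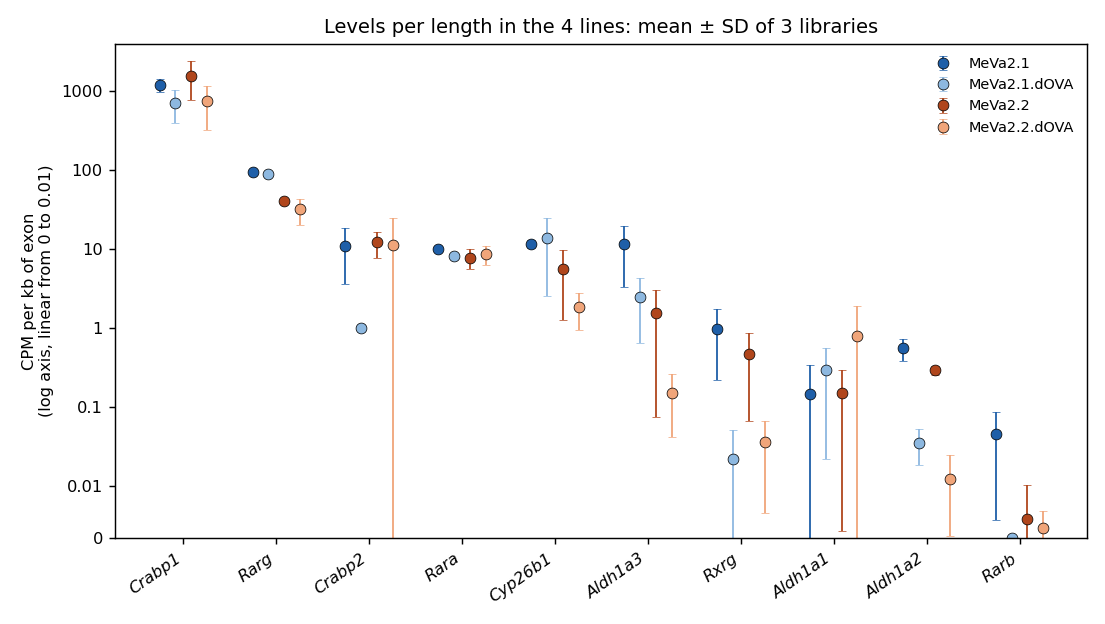
CPM per kb of exon (vertical axis, logarithmic above 0.01 and linear below) for the 10 genes ordered by their mean, with a point for each line and bars of ± 1 SD over 3 libraries, cut at 0. Crabp1 and Rarg lie above the rest in every line, and Aldh1a2, Rxrg and Rarb lie lowest in the dOVA lines.

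Over the 12 libraries the mean level per kb ran from 1068 for Crabp1 through 64.7 for Rarg, 8.89 for Crabp2, 8.70 for Rara, 8.21 for Cyp26b1 and 3.93 for Aldh1a3 to 0.377 for Rxrg, 0.344 for Aldh1a1, 0.224 for Aldh1a2 and 0.0127 for Rarb. The genes from Crabp2 to Cyp26b1 were at nearly the same mean level, and so were Rxrg and Aldh1a1. Across the 12 libraries the pair of members with the highest Pearson's r of log2 CPM was Aldh1a2 and Rxrg, at 0.85, and the pair with the lowest was Aldh1a1 and Aldh1a3, at -0.37. Libraries of 1 line share these values, so both are descriptions.

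Counts of members set beside all genes read as follows, and nothing is drawn from them since the same levels chose the members. With edgeR's quasi-likelihood test at an adjusted p of 0.05, 1 of the 9 members tested (Aldh1a2) passed for MeVa2.1.dOVA against MeVa2.1, beside 0.486% of all genes. For MeVa2.2.dOVA against MeVa2.2 it was 1 of 9 (Aldh1a2) beside 1.99%. Between the parents it was 1 of 9 (Rarg) beside 4.48%, and between the dOVA lines 3 of 9 (Aldh1a3, Crabp2 and Rarg) beside 11.3%. For the difference between the 2 dOVA differences it was 0 of 9 beside 0.0858%, with 1 at an unadjusted p under 0.05 and 0 by DESeq2. DESeq2 called more members than edgeR in each of the other comparisons, and these calls are given at the end. With the replicate block the count for MeVa2.1.dOVA against MeVa2.1 was 2, with Rxrg, beside 2.6%. Between the parents it was then 2, with Aldh1a3, beside 9.51%. Between the dOVA lines the block gave 4, with Cyp26b1, beside 22% of all genes. The median log2 difference of the 9 was -0.78 and -1.12 in the 2 dOVA lines, where all genes had medians of 0.00 and -0.02.

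Libraries of MeVa2.1.dOVA and MeVa2.1 did not overlap for 5 of the 10 genes (Aldh1a2, Crabp1, Crabp2, Rara and Rxrg), all lower in the dOVA line, beside 10.4% of genes lower without overlap. For MeVa2.2.dOVA and MeVa2.2 there were 3 (Aldh1a2, Aldh1a3 and Rxrg), all lower, beside 7.49%. Aldh1a2 and Rxrg were lower without overlap in both, beside 1.87% of all genes. By origin, 3 genes were higher without overlap in MeVa2.1 than in MeVa2.2 (Aldh1a2, Cyp26b1 and Rarg), beside 12%. Likewise 3 were higher in MeVa2.1.dOVA than in MeVa2.2.dOVA (Aldh1a2, Aldh1a3 and Rarg), beside 14%, with 1 lower (Crabp2), beside 16%. For Aldh1a2 the closest libraries of the dOVA lines held 1 count each, at 0.0574 and 0.0539 CPM. They differed only through the library totals, so the dOVA lines were not told apart by this gene.

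**Figure D3:**
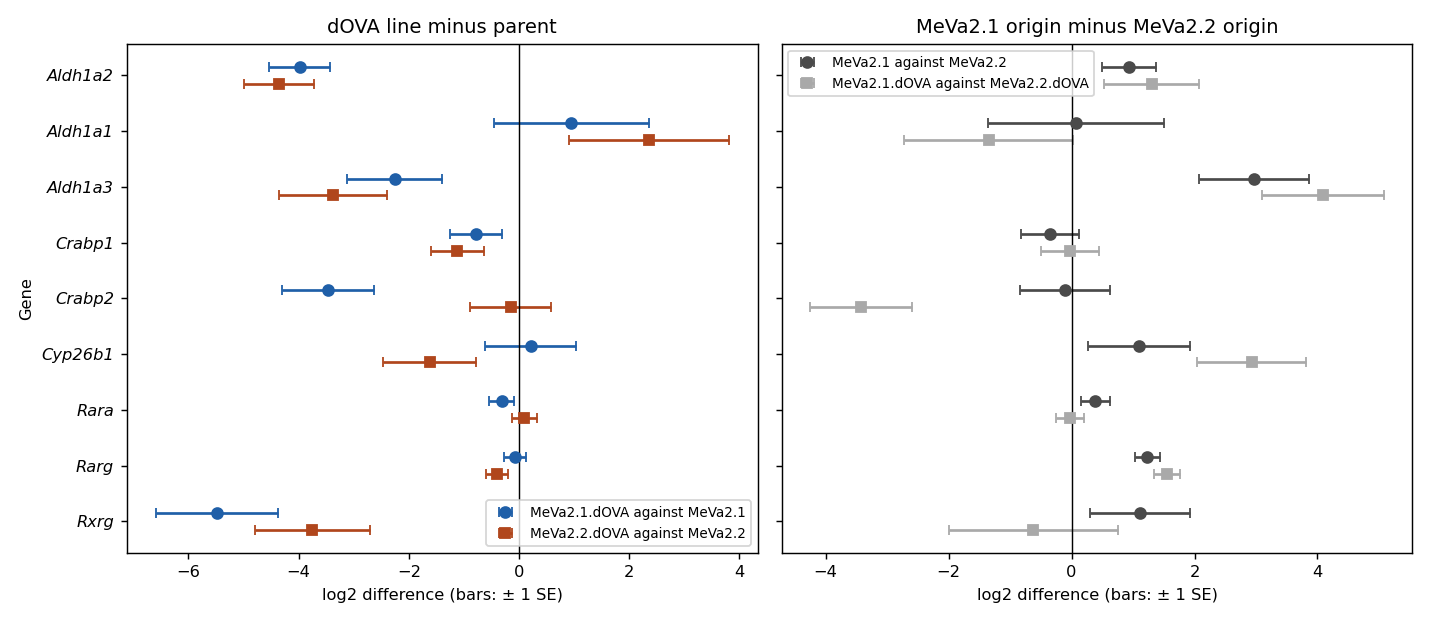
Log2 differences (horizontal axis) of the 9 fitted genes, with bars of ± 1 SE; the left panel gives each dOVA line minus its parent and the right panel MeVa2.1 origin minus MeVa2.2 origin, for parents and for dOVA lines. Aldh1a2 lies at -3.98 and -4.36 on the left, Rarg lies near 0 on the left and at 1.23 and 1.55 on the right, and Crabp2 lies at -3.47 in MeVa2.1.dOVA and at -0.15 in MeVa2.2.dOVA.

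The 5 genes with a pattern most like Aldh1a2, among 8922 well-expressed named genes and over the 12 libraries, were Nqo2 (Pearson's r 0.93, Spearman's rho 0.94), Abhd2 (0.92 and 0.94), Serpine2 (0.92 and 0.86), Nsd1 (0.91 and 0.78) and Rpn2 (0.90 and 0.87). Serpine2, a secreted inhibitor of serine proteases, stood at 60.1, 54.5 and 30.3 CPM in MeVa2.1 and at 5.81, 3.79 and 3.28 CPM in MeVa2.1.dOVA. Its levels in MeVa2.2 were 45.7, 29.9 and 56.2 CPM and in MeVa2.2.dOVA 5.12, 2.08 and 0.594 CPM. Nqo2, a quinone reductase, spanned a smaller range, from 41.4 to 64.4 CPM in the parents and from 27.3 to 40.5 CPM in the dOVA lines. By Spearman's rho 2 of the 5, Nqo2 and Abhd2, stayed among the first 5.

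Pdgfra, a marker of fibroblasts, had a lower mean in both dOVA lines, as Aldh1a2 did. It stood at 189, 140 and 70.4 CPM in MeVa2.1 and 101, 60.8 and 29.8 CPM in MeVa2.1.dOVA, which overlapped, and at 197, 162 and 200 CPM in MeVa2.2 and 53.6, 28.1 and 10.9 CPM in MeVa2.2.dOVA, which did not. The 8 fibroblast markers together summed to 2622 to 4143 CPM in MeVa2.1, 2183 to 4654 CPM in MeVa2.1.dOVA, 2852 to 6257 CPM in MeVa2.2 and 1583 to 6126 CPM in MeVa2.2.dOVA, and these sums, nearly all collagen, overlapped between every dOVA line and its parent. Of the 8 markers 4 were lower without overlap in MeVa2.1.dOVA (Thy1, Dcn, Fap and Col3a1) and 4 in MeVa2.2.dOVA (Thy1, Dcn, Lum and Pdgfra), beside 10.4% and 7.49% of all genes. Thy1 had means of 4.10 ± 2.99 and 0.0412 ± 0.0714 CPM (SD, n = 3) in MeVa2.1 and MeVa2.1.dOVA and of 20.3 ± 13.3 and 0.237 ± 0.215 CPM in MeVa2.2 and MeVa2.2.dOVA. Dcn had means of 3.42 ± 1.14 and 0.687 ± 0.059 CPM and of 1.62 ± 0.51 and 0.288 ± 0.034 CPM in the same order. The abundant collagens had no common direction. Again in that order, the means were 830, 1007, 868 and 472 CPM for Col1a1 and 1332, 1703, 2990 and 2138 CPM for Col1a2. By mean, both were thus above the parent for MeVa2.1.dOVA and below it for MeVa2.2.dOVA, with overlap each time. Col3a1 had means of 446 CPM for MeVa2.2 and 477 CPM for its dOVA line, which overlapped. In replicate 2 of MeVa2.1.dOVA 3 of the markers were at 0 (Thy1, Fap and Lum). Their part in the levels of the retinoid genes was not tested.

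A wider list of 58 other retinoid genes was tested, of which 31 passed the filter on low counts. The other 27 reached at most 1.296 CPM in any library, and 7 of them had no count at all. Among them were both remaining retinoic acid hydroxylases: Cyp26a1, the classical response gene whose DR5 is shown above, reached at most 0.297 CPM and Cyp26c1 at most 0.327 CPM. The retinol importer Stra6, named after its values were seen, had its highest level at 0.594 CPM in replicate 1 of MeVa2.1. Of the other retinoid X receptors Rxra, the main one of skin, was measured at 60.0 to 99.1 CPM.

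Between MeVa2.1.dOVA and MeVa2.1, 0 of the 31 passed edgeR's test, beside 0.486% of all genes, with 3 at an unadjusted p under 0.05 and 1 by DESeq2 (Dhrs3, lower). With the replicate block it was 0 beside 2.6%. At such shares a count of 0 is no result about these genes. Their median log2 difference was 0.13, against 0.00 over all genes. Dhrs3, which reduces retinal back to retinol and is known to be induced by retinoic acid, stood at 3.51, 3.02 and 1.01 CPM in MeVa2.1 and 0.742, 0.230 and 0.518 CPM in MeVa2.1.dOVA, a log2 difference of -2.35 (SE 0.60). The lines did not overlap, but edgeR's adjusted p was 0.148.

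Between MeVa2.2.dOVA and MeVa2.2, 2 of the 31 fell and 0 rose, beside 1.99% of all genes called in either direction. The levels of Dhrs3 were 2.25, 1.32 and 0.951 CPM in MeVa2.2 and 0.0539, 0.107 and 0.178 CPM in MeVa2.2.dOVA, so all 3 dOVA libraries were lower. Its log2 difference was -3.61 (SE 0.69, edgeR's adjusted p = 0.0276). Rarres1, named for its response to retinoids, stood at 6.98, 1.90 and 7.04 CPM in MeVa2.2 and at 0.270, 0.107 and 0.0594 CPM in MeVa2.2.dOVA. It too was lower in all 3, with a log2 difference of -5.26 (SE 0.96, edgeR's adjusted p = 0.0230). Over the alternatives the adjusted p ran from 0.000237 to 0.120 for Dhrs3 and from 3.80e-07 to 0.118 for Rarres1. Neither was called without replicate 1 of MeVa2.2 or without replicate 1 or 2 of MeVa2.2.dOVA, nor with these 2 lines alone, and Rarres1 also not without replicate 3 of MeVa2.2.

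Rarres1 was not lower in MeVa2.1.dOVA, where it stood at 10.1, 1.26 and 2.88 CPM against 3.94, 4.63 and 1.74 CPM in MeVa2.1, a log2 difference of 0.43 (SE 0.73). The difference between the 2 dOVA differences was 5.69 (SE 1.20) with edgeR's adjusted p at 0.108, so it was not called. For that contrast 0 of the 31 were called, beside 0.0858% of all genes, with 1 at an unadjusted p under 0.05 and 1 by DESeq2 (Rarres1).

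Between the parents 1 gene was higher and 1 lower in MeVa2.1, beside 4.48% of all genes. Adh7, an alcohol dehydrogenase that oxidises retinol, stood at 108, 92.1 and 153 CPM in MeVa2.1 and at 185, 214 and 206 CPM in MeVa2.2, a log2 difference of -0.78 (SE 0.19, edgeR's adjusted p = 0.0386). Tgm2, a transglutaminase known to be induced by retinoic acid, stood at 6.86, 16.6 and 7.21 CPM in MeVa2.1 and at 3.61, 0.948 and 0.837 CPM in MeVa2.2, a log2 difference of 2.56 (SE 0.65, edgeR's adjusted p = 0.0491). Neither gene's libraries overlapped. Both calls were close to the threshold: of the 12 libraries left out in turn, 9 removed the call of Adh7 and 10 that of Tgm2, with adjusted p up to 0.167 and 0.210. With the replicate block another gene, Rdh14, a retinol dehydrogenase, was higher in MeVa2.1 by 0.75 (SE 0.18, edgeR's adjusted p = 0.0273), and 0.104 without the block.

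Between the dOVA lines Adh7 was again lower in the MeVa2.1 origin, at 136, 116 and 158 CPM in MeVa2.1.dOVA and 240, 239 and 228 CPM in MeVa2.2.dOVA, a log2 difference of -0.76 (SE 0.19, edgeR's adjusted p = 0.0238). Without replicate 2 of MeVa2.2.dOVA its adjusted p was 0.101. Rarres1 was higher in MeVa2.1.dOVA by 5.10 (SE 0.96, edgeR's adjusted p = 0.00591), a call kept with every library left out in turn, with adjusted p up to 0.0317. These 2 of 31 stand beside 11.3% of all genes. With the replicate block 6 were called, beside 22%: Rarres1, Rdh14 and Fabp5 higher in MeVa2.1.dOVA, and Adh7, Rdh13 and Btg2 lower.

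By role, 0 of 7 receptor co-regulators, 0 of 4 receptors and delivery proteins and 0 of 2 tested uptake and storage genes were called in any of these comparisons by edgeR without the block. Over all genes the shares called were 0.0858% to 11.3%, so a 0 among so few genes is no result about them. DESeq2 called Ncor1 for MeVa2.2.dOVA against MeVa2.2 and Ncoa3 between the dOVA lines. The block called Ncor1 and Fabp5 in the same comparisons. Among the co-regulators the co-repressor Ncor1 lay at 238 to 408 CPM. Ppard, a nuclear receptor that can bind retinoic acid, lay at 49.6 to 78.8 CPM beside Rxra. Scarb1, which takes up carotenoids and lipoprotein lipids, lay at 58.8 to 122 CPM, and Dgat1, which esterifies retinol for storage, at 9.88 to 16.6 CPM. Of the 10 retinol and retinal oxidoreductases tested, Dhrs3 and Adh7 were called, and of 8 known response genes Rarres1 and Tgm2.

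**Figure D4:**
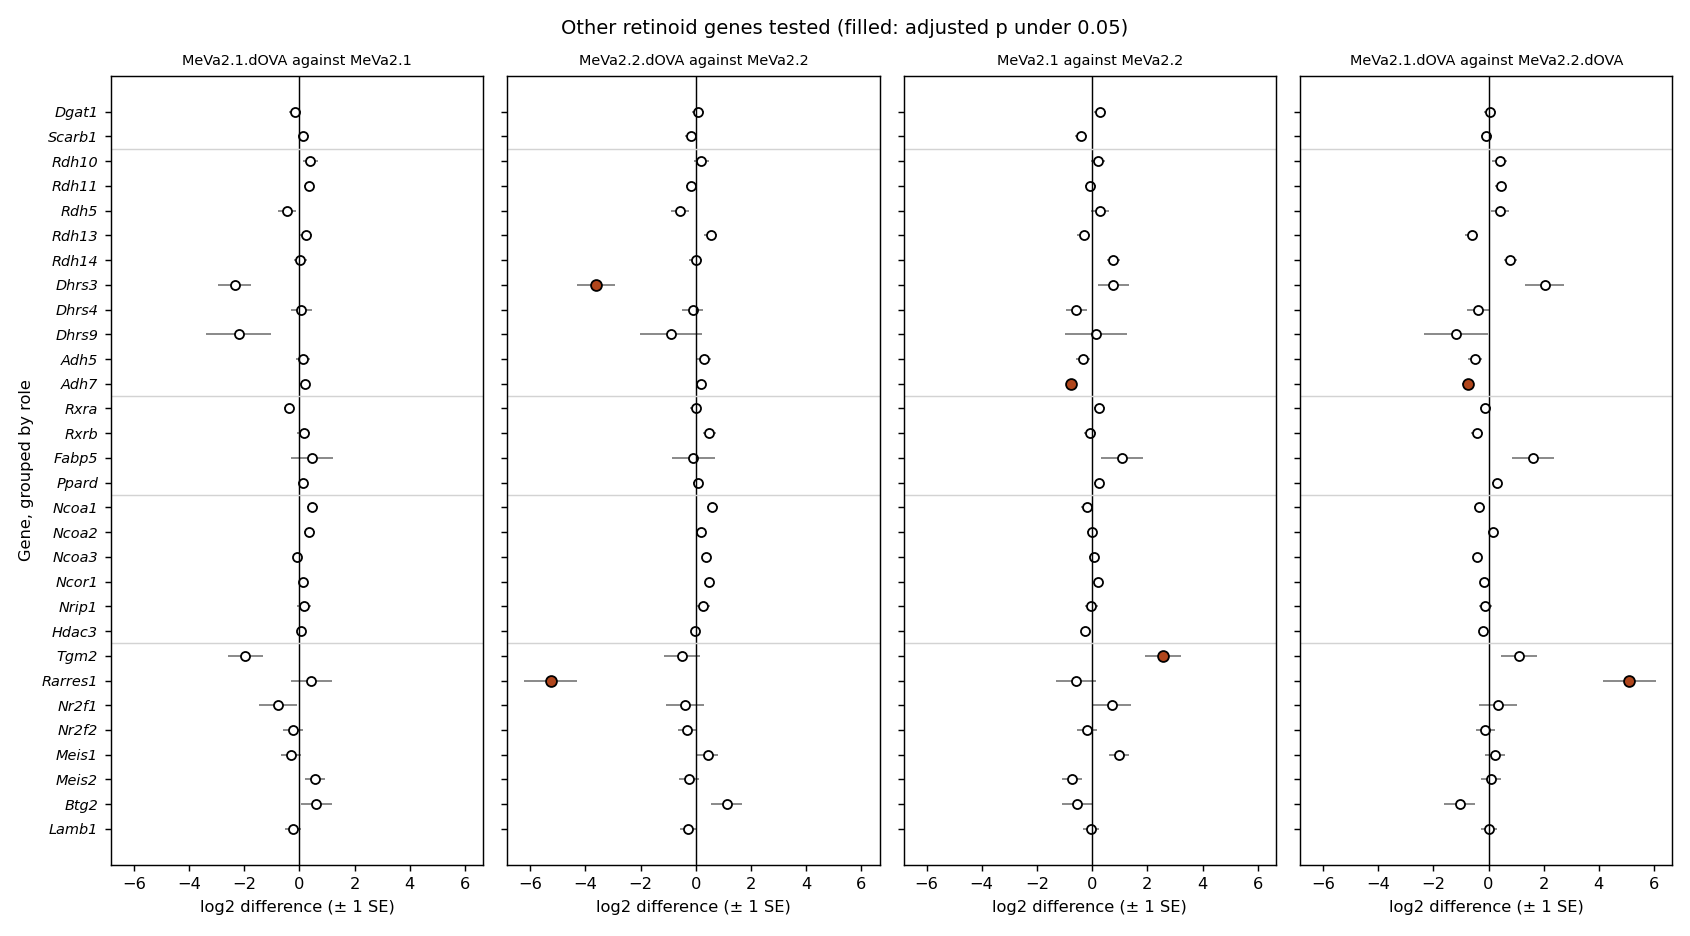
Log2 differences (horizontal axis, bars ± 1 SE) of the tested genes of the wider list reported by name in 4 comparisons, grouped by role with grey lines between roles; filled points have an adjusted p under 0.05 by edgeR. Filled points are Dhrs3 and Rarres1 in the second panel, Adh7 and Tgm2 in the third and Adh7 and Rarres1 in the fourth, and the first panel has none.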

How the data were processed

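The submitters' processing notes name GRCm38, HTSeq 0.10.0, STAR 2.6.0c and DESeq2 1.30.1, and the authors deposited whole-number counts per gene, not normalized. The 5 tally lines in each file (35.8% to 40.0% of a library) were left out. Per the labels, libraries were poly(A)-selected and stranded. Levels are CPM over all gene rows, mean ± SD over 3 libraries, with exons from GENCODE M21. Counts were fitted in R 4.3.3 with edgeR 4.0.16 (TMM, filterByExpr, 13985 genes, glmQLFit over all 12 libraries with one mean per line, 8 residual degrees of freedom), with Benjamini-Hochberg adjustment over all genes at 0.05. An SE is the one implied by the F statistic. DESeq2 1.42.0 was an alternative, and the code was tested on simulated data. Intervals are exact at 95%, and like floors they hold only the error of counting.

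The members and lists were chosen with earlier results of these data known, so no p-value of a member is printed. Counts of members that passed a threshold are descriptions only. Named genes are all members, called genes of the wider list (at most 6 per comparison) and the 2 most abundant of a role with none called. Also named are the 5 most like Aldh1a2 by Pearson's r (log2 CPM, prior count 2, mean at least 3), and the markers Mitf, Sox10, Tyr, Axl and Pdgfra. Stra6, Adh1, the remaining markers and genes called only with the block or by DESeq2 were named after their values were seen. Same-numbered libraries deviated together, by the correlation across genes of deviations from line means, at 0.488 to 0.534 for MeVa2.1.dOVA with MeVa2.1, 0.328 to 0.429 for the parents and 0.105 to 0.516 for the dOVA lines, all over the limit of 0.1, so a replicate block is given for these where it changes a call. For MeVa2.2.dOVA with MeVa2.2 the correlations were 0.0815, 0.64 and 0.521 in replicates 1, 2 and 3. Replicate 1 was under the limit, so those lines are not treated as pairs. The labels do not say what a number stands for. Some genes of the lists are not reported here by name.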

Additional observations from a re-analysis of the deposited data

Results flagged for a closer look

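Adh1, an alcohol dehydrogenase of the wider list that did not pass the filter on low counts, was lower in every MeVa2.1.dOVA library than in every MeVa2.1 library and higher in every MeVa2.2.dOVA library than in every MeVa2.2 library. Its levels were 0.270, 0.208 and 0.589 CPM in MeVa2.1, 0.0618, 0.115 and 0.0288 CPM in MeVa2.1.dOVA, 0, 0.0527 and 0 CPM in MeVa2.2 and 0.108, 0.107 and 0.178 CPM in MeVa2.2.dOVA. The difference between the 2 changes in mean level was -0.401 CPM. It has no test in the fit behind the report. With no filter on low counts edgeR gave a log2 difference of -5.12 (SE 1.51) and an adjusted p of 0.189, so it was not called, and DESeq2 gave an unadjusted p of 0.00458 and no adjusted p. Between the parents DESeq2 did call Adh1. Summed counts were 30, 4, 1 and 10. Groups of 3 libraries are too small for the check on single deviating samples.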

How the results depend on the processing

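The 9 fitted members had 45 differences under 843 alternatives in all: 810 kept their sign, 817 stayed within 1 SD between replicates of the value given, and none that passed the threshold changed sign. All 160 alternatives of the 40 mean levels stayed within 1 SD, which does not show that the levels are robust. Leaving out a library cannot move a line's mean by as much as the SD of those same libraries, so that result was fixed in advance. The 40 alternatives with TMM scaling used factors of only 0.953 to 1.068. The depth leaves Aldh1a2, Rxrg and Rarb with 0 to 5 summed counts in the dOVA lines, so the size of their differences is loosely bounded.

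Counts of genes of the wider list called were, in the order MeVa2.1.dOVA against MeVa2.1, MeVa2.2.dOVA against MeVa2.2, the parents, the dOVA lines and the difference between origins, 0, 2, 2, 2 and 0. The DESeq2 Wald test covered 51 of the 58 genes, a larger set than the 31. It moved the first to 1, the parents to 4, the dOVA lines to 4 and the last to 1. Its 4 for the parents include Adh1, which is not among the 31. Fitting only the 2 lines compared gave 0 for MeVa2.2 and 0 for the parents. With no filter on low counts the last was 1. Leaving out replicate 2 of both MeVa2.1.dOVA and MeVa2.2, added after seeing the data, gave 1 for the parents. Leaving out 1 library gave ranges of 0 to 0, 0 to 3, 0 to 2, 1 to 4 and 0 to 0. For MeVa2.2.dOVA against MeVa2.2 the count was 0 when replicate 1 of the parent, or replicate 1 or 2 of the dOVA line, was left out, and 1 when replicate 3 of the parent was. For the parents it was 0 when replicate 1 or 2 of MeVa2.1 or of MeVa2.2.dOVA, replicate 1 or 3 of MeVa2.1.dOVA, or replicate 3 of MeVa2.2 was left out, and 1 when replicate 3 of MeVa2.1, replicate 2 of MeVa2.1.dOVA, or replicate 1 or 2 of MeVa2.2 was. For the dOVA lines it was 1 without replicate 1 or 2 of either line and 4 without MeVa2.2 replicate 2.

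Over all genes the counts were 68, 278, 627, 1574 and 12 in the same order, and 71, 274, 629, 1576 and 12 with DESeq2's size factors. They were 272, 729, 969, 1752 and 161 with no filter, 389, 950, 1200, 2366 and 272 by DESeq2, and 25, 5, 397 and 1025 with only the lines compared. Without both replicates 2 the first was 2 and the second 693. Leaving out 1 library gave 1 to 83, 20 to 447, 279 to 775, 796 to 2578 and 0 to 13. DESeq2 tested all 10 members. In the same order it called 3 (Aldh1a2, Crabp2 and Rxrg), 3 (Aldh1a2, Aldh1a3 and Rxrg), 2 (Aldh1a3 and Rarg), 4 (Aldh1a3, Crabp2, Cyp26b1 and Rarg) and 0. These stand beside its 389, 950, 1200, 2366 and 272 over all genes, and nothing is drawn from them.

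In the fit with a replicate block, the paired analysis, all genes called were 364, 1084, 1330, 3079 and 118, and the wider list gave 4 for MeVa2.2 (Dhrs3, Rarres1, Ncor1 and Btg2) and 6 for the dOVA lines. Of the 9 members tested the block called 3 for MeVa2.2 (Aldh1a2, Aldh1a3 and Rxrg), beside 1084 of the 13985 genes, and nothing is drawn from this. The MeVa2.2 lines were not treated as pairs because replicate 1 fell under the limit, although replicates 2 and 3 did not. The cause of these shifts was not tested. The genes most like Aldh1a2 were shared between both correlation measures for 2 of 5.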
